A study of Mus musculus with 9 samples.

Results

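The genes described here are 9 genes of retinoic acid signalling measured in the embryonic mouse striatum: the retinoic acid receptors Rara, Rarb and Rarg, the retinoid X receptors Rxra, Rxrb and Rxrg, the cellular retinoic acid binding proteins Crabp1 and Crabp2, and the retinaldehyde dehydrogenase Aldh1a3. They were taken by name, with earlier results of these data known, as the rows of the count tables whose Ensembl identifier carries these symbols. They are 9 of 44886 gene identifiers in each table and 9 of the 16368 genes with enough counts to be tested. RNA was taken from the striatum at embryonic stage E17.5 from 9 embryos labelled as C57BL/6 background, with 1 library per embryo and 3 embryos per genotype. The genotypes were Control, Islet1Cre;Ebf1fl/- and Dlx5/6::Cre;Ebf1fl/-. Ebf1 encodes a transcription factor of direct pathway striatal projection neurons (dSPN), and each mutant carries 1 null and 1 floxed Ebf1 allele, the latter removed where Cre is made.

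Cre made from Islet1 acts in dSPN and in cholinergic interneurons of the striatum. The Dlx5/6::Cre transgene acts in every striatal projection neuron (SPN), of the direct and the indirect pathway, and in interneurons. By the study's methods the controls were heterozygous embryos. The labels do not give the exact control genotype, and the females of the crosses were homozygous for the floxed allele. The Islet1Cre line was kept on a mixed B6D2F1/J background. The comparisons ask how loss of Ebf1 from either set of cells changes gene expression in the striatum.

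Retinoic acid is made from retinol, first by retinol dehydrogenases and then by the retinaldehyde dehydrogenases, of which Aldh1a3 is a member. Inside the cell it is carried by the CRABP proteins, and CYP26 enzymes clear it. It activates nuclear receptors of the RAR family, which bind DNA together with a partner of the RXR family at response elements made of a repeated hexamer. In the developing ventral forebrain, retinoic acid made in the lateral ganglionic eminence is known to act on SPN differentiation, and Rarb and Rxrg are known as receptors enriched in the striatum.

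Rarb is itself a classical target of retinoic acid, through a response element next to a start site of the gene. The element is shown because Rarb was the 1 member with such a repeat in the promoters searched. It was found in the RefSeq promoter (GRCm38.p6) of Rarb at chr14:16575507-16575535 on the minus strand. The repeated hexamers are in capitals.

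Rarb: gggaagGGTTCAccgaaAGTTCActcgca

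The element spans the bases from 53 to 37 upstream of the RefSeq start. In the GENCODE annotation it lies in the first exon of transcripts that begin farther upstream. Promoters of 300 bases, from 250 before to 50 after each start, were searched on both strands for the hexamer AGGTCA, or its forms AGTTCA and GGGTCA and also GGTTCA, repeated in the same direction with 5 bases between the copies (DR5). Of 32851 promoters of that length, 32 (0.0974%) held such a pair. RefSeq gave 14 promoters for 7 of the 9 genes, and the promoter of Rarb was the 1 that held a DR5 pair. None of the 14 held the pair with 1 or 2 bases between (found in 0.222% and 0.268% of all promoters), nor an EBF site, searched as TCCC and then GGGA with 2 bases of any kind between them (found in 0.904%). A match or its absence describes these letters in this window.

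The 250 bases upstream of the start of Crabp1 are shown because Crabp1 was the member whose level changed. They lie at chr9:54764498-54764747 on the plus strand of the same build. GC boxes (GGGCGG on either strand) are in capitals.

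Crabp1: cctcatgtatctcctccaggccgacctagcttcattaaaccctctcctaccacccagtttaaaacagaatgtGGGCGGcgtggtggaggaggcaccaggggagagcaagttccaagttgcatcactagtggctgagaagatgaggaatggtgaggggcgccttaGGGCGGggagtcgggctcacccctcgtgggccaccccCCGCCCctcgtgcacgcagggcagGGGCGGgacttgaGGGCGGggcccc

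The stretch held 5 GC boxes, a number reached or passed by 1.93% of the 32851 upstream stretches, and no copy of the hexamer forms above, whereas 38.6% of stretches held at least 1.

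Counts on genes totalled between 16548083 and 41507049 per library. SPN genes were abundant in every library, with Bcl11b, which encodes Ctip2, at 660.0 to 876 counts-per-million units (CPM, with library totals scaled by the TMM method of edgeR). Ebf1 itself was counted at 264 to 470.0 CPM in controls, 439 to 507 in Islet1Cre;Ebf1fl/- and 392 to 506 in Dlx5/6::Cre;Ebf1fl/-, so that the labelled genotypes could not be checked on this gene. For the protein, the study reports by immunostaining that Ebf1 was missing from the E17.5 striatum of both mutants. Control 2 held Y-linked transcripts (summed to 125.8 CPM) and almost no Xist (0.108 CPM). All 3 Dlx5/6::Cre;Ebf1fl/- embryos held Xist (358 to 491 CPM) and at most 0.027 CPM of Y-linked transcripts, so sex was not balanced between these groups. The part of sex in the differences was not tested. Control 3 and Islet1Cre;Ebf1fl/- embryo 3 held both Xist and Y-linked counts, and Dlx5/6::Cre;Ebf1fl/- embryo 1 stood apart in progenitor markers (Pax6 34.9 CPM, against 4.21 to 8.26 in the other 8 libraries). For Crabp1, Rarb, Rxrg, Aldh1a3, Lrat, Cyp26b1 and Stra6, results are also given without some of these libraries. The receptor shares were not recomputed without them.

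In controls, Crabp1 and Rxrg were the most abundant of the 9 genes and Aldh1a3, with 1 to 20 counts, was near the limit of detection. Levels are compared between genes as CPM per kilobase of exon. Crabp1 was at 294.4 ± 68.7 (SD, n = 3) and Rxrg at 257.9 ± 40.02, above 99.3% and 99.2% of tested genes, and their ranges over the embryos overlapped. Rarb followed at 39.01 ± 8.65 and Rxrb at 27.3 ± 0.424, each apart from its neighbours in the order. Rara, at 6.65 ± 0.891, lay near the middle of all genes. Rxra (3.42 ± 0.0478), Crabp2 (3.05 ± 0.463) and Rarg (2.64 ± 0.343) came next, and each overlapped its neighbour among these. Aldh1a3 was last at 0.0573 ± 0.0559, 46.0-fold below Rarg and above 1.04% of tested genes.

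Of the 9 genes, 1 changed in Dlx5/6::Cre;Ebf1fl/- and none in Islet1Cre;Ebf1fl/- at an adjusted p below 0.05 (edgeR's quasi-likelihood test, Benjamini-Hochberg adjustment over all 16368 genes). The changed gene was Crabp1, which fell. Over all genes, 2.39% were called in the former comparison (1.34% lower) and 0.971% in the latter. Calls over all genes were 1.05% higher in the former and 0.47% higher and 0.501% lower in the latter. At an unadjusted p below 0.05 the members numbered 4 of 9 in Dlx5/6::Cre;Ebf1fl/-, where 15.5% of all genes passed, and 2 of 9 in Islet1Cre;Ebf1fl/-, where 7.93% passed. DESeq2, run as another tool, called Rxrg and Crabp1 in Dlx5/6::Cre;Ebf1fl/- and Crabp1 in Islet1Cre;Ebf1fl/-. Over all genes it called 873 and 395 in these comparisons, against 392 and 159 by edgeR. The median log2 fold change of the 9 genes was −0.07 and −0.14 in the respective mutants, against 0.01 and −0.002 over all genes. Both comparisons share the same 3 control embryos.

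**Figure D1:**
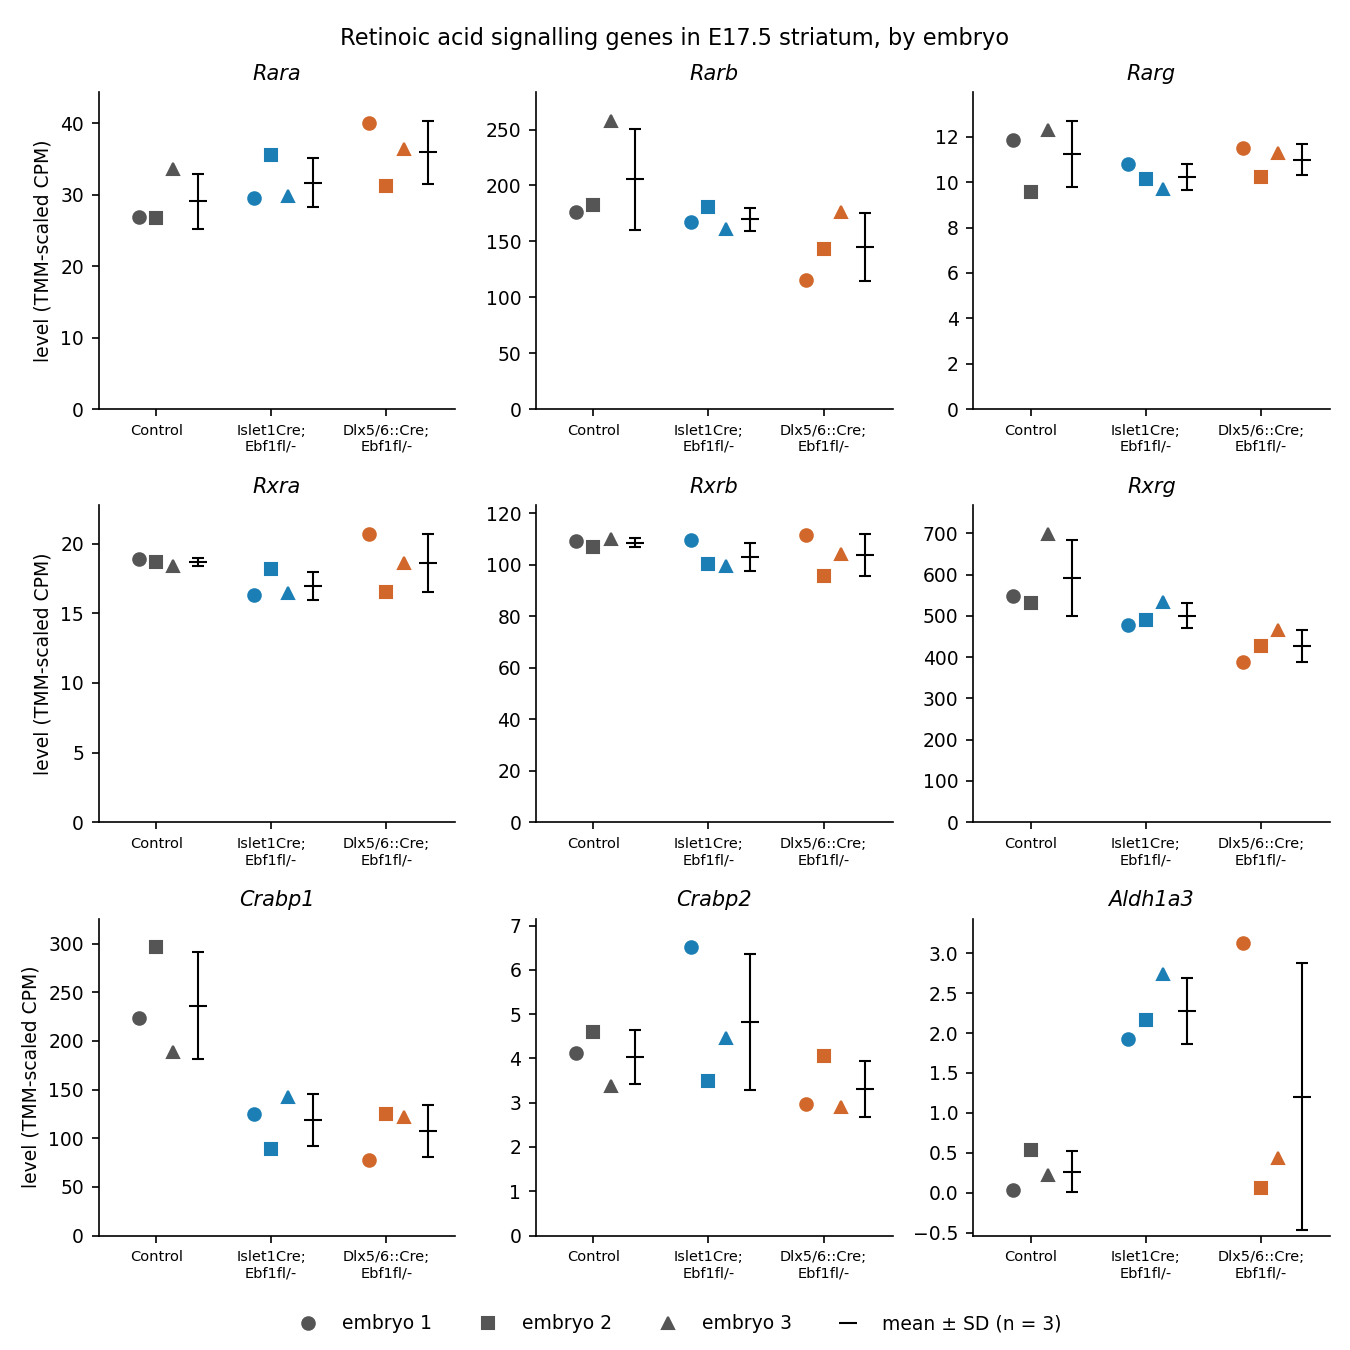
Level of each of the 9 genes in TMM-scaled CPM (linear axes), with 1 point per embryo in the 3 genotypes, and the mean ± SD of 3 embryos beside them. All 6 mutant embryos lay below the 3 controls for Crabp1, and Aldh1a3 was above 1 CPM in 4 of 9 embryos.

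The binding proteins differed from each other in level and in response. Crabp1 (ENSMUSG00000032291, chromosome 9, 54764748 to 54773110, plus strand) encodes a small cytosolic protein that binds retinoic acid and is known to limit the amount that reaches the nucleus. It was at 223.7, 296.3 and 188.3 CPM in controls 1 to 3, at 124.7, 89.1 and 142.1 in Islet1Cre;Ebf1fl/- and at 77.1, 125.2 and 121.4 in Dlx5/6::Cre;Ebf1fl/-. Every mutant embryo was below every control, and the mutants overlapped each other. In Dlx5/6::Cre;Ebf1fl/- its level was 0.457-fold that of controls (95% interval 0.324 to 0.645; log2 fold change −1.13 ± 0.225 SE, adjusted p = 0.0279 by edgeR). For Islet1Cre;Ebf1fl/- the fold was 0.501 (0.355 to 0.707), with an adjusted p of 0.0835 by edgeR. In bulk tissue, fewer cells that make a transcript and less of it per cell cannot be told apart.

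The fall of Crabp1 kept its sign in all 19 alternative fits for each mutant, while the call depended on the fit. In Dlx5/6::Cre;Ebf1fl/-, the adjusted p by edgeR was 0.0877 without control 1, 0.0856 without control 2, 0.06 without Dlx5/6::Cre;Ebf1fl/- embryo 3 and 0.0537 without Islet1Cre;Ebf1fl/- embryo 1. Without both libraries that held Xist and Y-linked counts, the log2 fold change was −1.27 (adjusted p = 0.0502), and without these and the progenitor-rich library it was −1.08 (adjusted p = 0.0123). For Islet1Cre;Ebf1fl/- the corresponding values were −1.28 (adjusted p = 0.13) and −1.28 (adjusted p = 0.00649), and without Dlx5/6::Cre;Ebf1fl/- embryo 1 alone the adjusted p was 0.0133. The embryo codes in the labels begin with IE for 2 controls and all Islet1Cre;Ebf1fl/- embryos and with D for 1 control and all Dlx5/6::Cre;Ebf1fl/- embryos. Within the IE codes Crabp1 averaged 119 CPM in 3 mutants and 260.0 in 2 controls, and within the D codes 108 CPM in 3 mutants and 188 in 1 control. With the code as a covariate the adjusted p in Dlx5/6::Cre;Ebf1fl/- was 0.495.

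The genes whose levels followed Crabp1 most closely over the 9 libraries were Ajap1 (Pearson r = 0.983 of log2 CPM), Tspan9 (0.97) and Tmcc2 (0.97). These were the closest 3 of 16367, of which 110 passed 0.9, and the genotypes enter this likeness as well as the spread between embryos. Since they were picked on the same libraries, their tests are not independent of that choice. By edgeR in Dlx5/6::Cre;Ebf1fl/-, Ajap1 (log2 fold change −0.59, adjusted p = 0.0417) and Tmcc2 (−0.51, adjusted p = 0.027) fell. Tmcc2 also fell in Islet1Cre;Ebf1fl/- (−0.55, adjusted p = 0.0349) and Ajap1 was at −0.55 (adjusted p = 0.102). Tspan9 did not pass in either mutant, at −0.29 (adjusted p = 0.332) in Islet1Cre;Ebf1fl/- and −0.35 (adjusted p = 0.108) in Dlx5/6::Cre;Ebf1fl/-.

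Crabp2 (ENSMUSG00000004885, chromosome 3, 87948666 to 87953376, plus strand) encodes the related protein known to hand retinoic acid to RAR. It was at 4.12, 4.597 and 3.38 CPM in controls, 6.51, 3.50 and 4.46 in Islet1Cre;Ebf1fl/- and 2.98, 4.05 and 2.91 in Dlx5/6::Cre;Ebf1fl/-. The 3 genotypes overlapped. The fold was 1.19 (95% interval 0.805 to 1.76) in Islet1Cre;Ebf1fl/- and 0.821 (0.556 to 1.21) in Dlx5/6::Cre;Ebf1fl/-, and neither passed the test (adjusted p = 0.993 and 0.632 by edgeR). Of the summed level of both CRABP transcripts per kilobase, Crabp1 made up 99.0% in controls, 97.6% in Islet1Cre;Ebf1fl/- and 98.1% in Dlx5/6::Cre;Ebf1fl/-. An exact two-sided permutation test of the Crabp2 share gave p = 0.1 for each mutant against Control and 0.4 between the mutants. With 3 embryos against 3 it cannot go below 0.1.

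None of the 3 RAR genes passed the test in either mutant. Rarb (ENSMUSG00000017491, chromosome 14, 16430839 to 16819156, minus strand), the most abundant of them, was at 175.8, 182.6 and 257.8 CPM in controls, 167.2, 180.9 and 160.8 in Islet1Cre;Ebf1fl/- and 115.3, 142.8 and 176.6 in Dlx5/6::Cre;Ebf1fl/-. Control 3 was the highest and Dlx5/6::Cre;Ebf1fl/- embryo 1 the lowest, and each mutant overlapped the controls. Rarb in Dlx5/6::Cre;Ebf1fl/- was at a fold of 0.706 (95% interval 0.546 to 0.913, unadjusted p = 0.0126, adjusted p = 0.177 by edgeR), and in Islet1Cre;Ebf1fl/- it was 0.827 (0.639 to 1.07, adjusted p = 0.859). Without control 3 the log2 fold change in Dlx5/6::Cre;Ebf1fl/- was −0.31 in place of −0.50, and without control 3, Islet1Cre;Ebf1fl/- embryo 3 and Dlx5/6::Cre;Ebf1fl/- embryo 1 it was −0.17. Within the IE codes Rarb averaged 170.0 CPM in mutants and 179 in controls, and within the D codes 145 CPM in 3 mutants and 258 in 1 control.

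Annotated exons of Gm48162 and of Top2b, a DNA topoisomerase gene, overlap 38.4% of the exon bases of Rarb on the other strand. The library kit marks strand (TruSeq Stranded mRNA), but whether the counting used it is not given in the sources used here, so the level of Rarb is uncertain in this respect. Top2b was at a log2 fold change of 0.16 (adjusted p = 0.668) in Islet1Cre;Ebf1fl/- and 0.28 (adjusted p = 0.0943) in Dlx5/6::Cre;Ebf1fl/- by edgeR. The other 8 members shared no annotated exon base with another gene.

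Rara (ENSMUSG00000037992, chromosome 11, 98927818 to 98974942, plus strand), the broadly expressed RAR, was at 26.9, 26.7 and 33.5 CPM in controls, 29.5, 35.6 and 29.8 in Islet1Cre;Ebf1fl/- and 40.02, 31.2 and 36.4 in Dlx5/6::Cre;Ebf1fl/-. Control 3 lay within the range of both mutants. The fold was 1.09 (95% interval 0.896 to 1.33, adjusted p = 0.991) and 1.24 (1.02 to 1.51, unadjusted p = 0.0374, adjusted p = 0.287) in the respective mutants by edgeR. Rarg (ENSMUSG00000001288, chromosome 15, 102234938 to 102257517, minus strand) lay between 9.57 and 12.3 CPM in all 9 embryos, with folds of 0.909 (0.737 to 1.12) and 0.978 (0.794 to 1.20).

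The share of each receptor within its family used the levels per kilobase. Rarb made up 80.6% ± 1.71 (SD, n = 3) of the RAR transcripts in controls, 77.0% ± 0.404 in Islet1Cre;Ebf1fl/- and 71.4% ± 5.69 in Dlx5/6::Cre;Ebf1fl/-, where embryo 1 had the lowest share of 64.9%. Rara made up 13.9% ± 0.875, 17.3% ± 0.842 and 21.8% ± 4.66 in the same order. The 3 genotypes did not overlap in either share, and embryos 2 and 3 of Dlx5/6::Cre;Ebf1fl/- (19.5% and 18.7% Rara) were above the 18.2% of the highest Islet1Cre;Ebf1fl/- embryo. An exact two-sided permutation test gave p = 0.1 for each pair of genotypes, which is the smallest that 3 embryos against 3 can give. Both are shares of the same sum, so they are not separate results. The overlap of Rarb with genes on the other strand bears on these shares too. They were computed after the levels of these receptors had been seen.

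**Figure D2:**
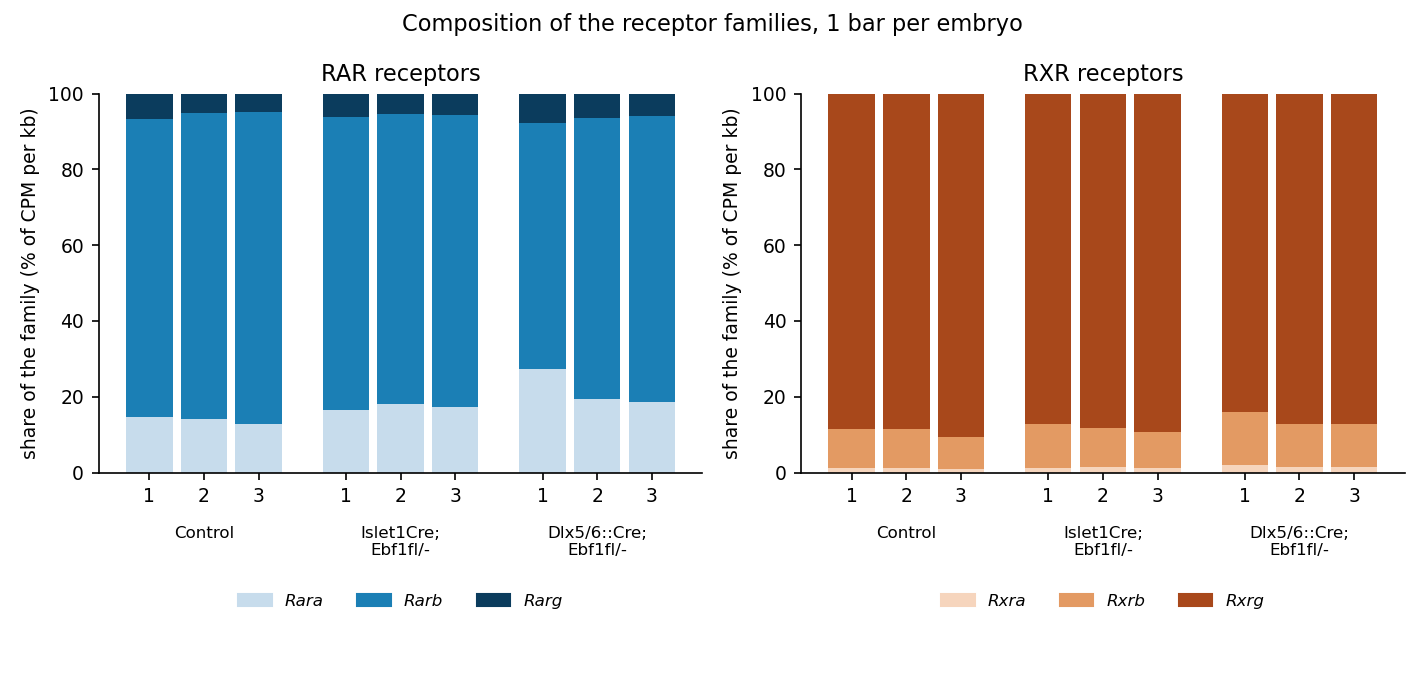
Share of each receptor in the summed level per kilobase of its family (%), with 1 stacked bar per embryo in each genotype. Rarb fills 64.9% to 82.3% of the RAR bars and Rxrg 84.1% to 90.7% of the RXR bars.

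Rxrg (ENSMUSG00000015843, chromosome 1, 167598384 to 167639623, plus strand) was the main RXR transcript. It was at 547.3, 531.5 and 698.1 CPM in controls, 477.3, 490.5 and 534.4 in Islet1Cre;Ebf1fl/- and 388.2, 426.9 and 465.7 in Dlx5/6::Cre;Ebf1fl/-. All 3 Dlx5/6::Cre;Ebf1fl/- embryos were below every other embryo, whereas 1 Islet1Cre;Ebf1fl/- embryo exceeded the lowest control. For Dlx5/6::Cre;Ebf1fl/- the fold was 0.721 (95% interval 0.605 to 0.859), which did not pass the threshold (unadjusted p = 0.00178, adjusted p = 0.0641 by edgeR). The fold in Islet1Cre;Ebf1fl/- was 0.845 (0.710 to 1.01, adjusted p = 0.671). Without control 3 the log2 fold change in Dlx5/6::Cre;Ebf1fl/- was −0.34 in place of −0.47 (adjusted p = 0.206). Within the IE codes Rxrg averaged 501 CPM in mutants and 539 in controls, and within the D codes 427 CPM in 3 mutants and 698 in 1 control. It made up 89.2% ± 1.31 of RXR transcripts in controls, 88.2% ± 1.03 in Islet1Cre;Ebf1fl/- and 86.2% ± 1.81 in Dlx5/6::Cre;Ebf1fl/-. The permutation test of its share gave p = 0.4 for Islet1Cre;Ebf1fl/- and 0.1 for Dlx5/6::Cre;Ebf1fl/- against Control, and 0.3 between the mutants.

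Rxrb (ENSMUSG00000039656, chromosome 17, 34031812 to 34038399, plus strand), a broadly expressed RXR, had the smallest SE of the 9 genes. It lay between 95.5 and 111.7 CPM in all embryos, with folds of 0.95 (95% interval 0.846 to 1.07) and 0.956 (0.852 to 1.07) in the respective mutants. Rxra (ENSMUSG00000015846, chromosome 2, 27676440 to 27762957, plus strand) was at 18.9, 18.7 and 18.4 CPM in controls, 16.3, 18.1 and 16.4 in Islet1Cre;Ebf1fl/- and 20.7, 16.5 and 18.6 in Dlx5/6::Cre;Ebf1fl/-. Islet1Cre;Ebf1fl/- lay just below the controls without overlap, at a fold of 0.910 (0.769 to 1.08, adjusted p = 0.955 by edgeR), and Dlx5/6::Cre;Ebf1fl/- at 0.996 (0.843 to 1.18).

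Aldh1a3 (ENSMUSG00000015134, chromosome 7, 66390890 to 66427517, minus strand), which makes retinoic acid from retinaldehyde, was counted 1, 20 and 7 times in controls, 43, 92 and 46 times in Islet1Cre;Ebf1fl/- and 87, 2 and 16 times in Dlx5/6::Cre;Ebf1fl/-. As CPM these were 0.0301, 0.541 and 0.223 in controls, 1.93, 2.16 and 2.74 in Islet1Cre;Ebf1fl/- and 3.12, 0.0604 and 0.431 in Dlx5/6::Cre;Ebf1fl/-. All 3 Islet1Cre;Ebf1fl/- embryos were above the controls, whereas in Dlx5/6::Cre;Ebf1fl/- the progenitor-rich embryo 1 was high and the other 2 lay within the control range. The log2 fold change was 3.05 ± 1.04 SE in Islet1Cre;Ebf1fl/- (95% interval 0.74 to 5.35) and 2.10 ± 1.06 in Dlx5/6::Cre;Ebf1fl/- (−0.23 to 4.43). Neither passed the test over all 9 libraries (adjusted p = 0.344 and 0.364 by edgeR). Controls 1 and 3 were below the minimum count of 10 used to select genes for testing. Aldh1a3 therefore entered the test through libraries of both mutants, and its tests are not independent of its level there. Without Dlx5/6::Cre;Ebf1fl/- embryo 1 the adjusted p in Islet1Cre;Ebf1fl/- was 0.0281, at a log2 fold change of 3.04, and the difference in Dlx5/6::Cre;Ebf1fl/- turned to −0.10. The progenitor list in Islet1Cre;Ebf1fl/- summed to between 560.0 and 712 CPM, against 632 to 719 in controls. The part of progenitors in the level of Aldh1a3 was not tested in either mutant. Of windows of 75 bases in Aldh1a3 transcripts, 0.59% also occurred in transcripts of other genes.

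**Figure D3:**
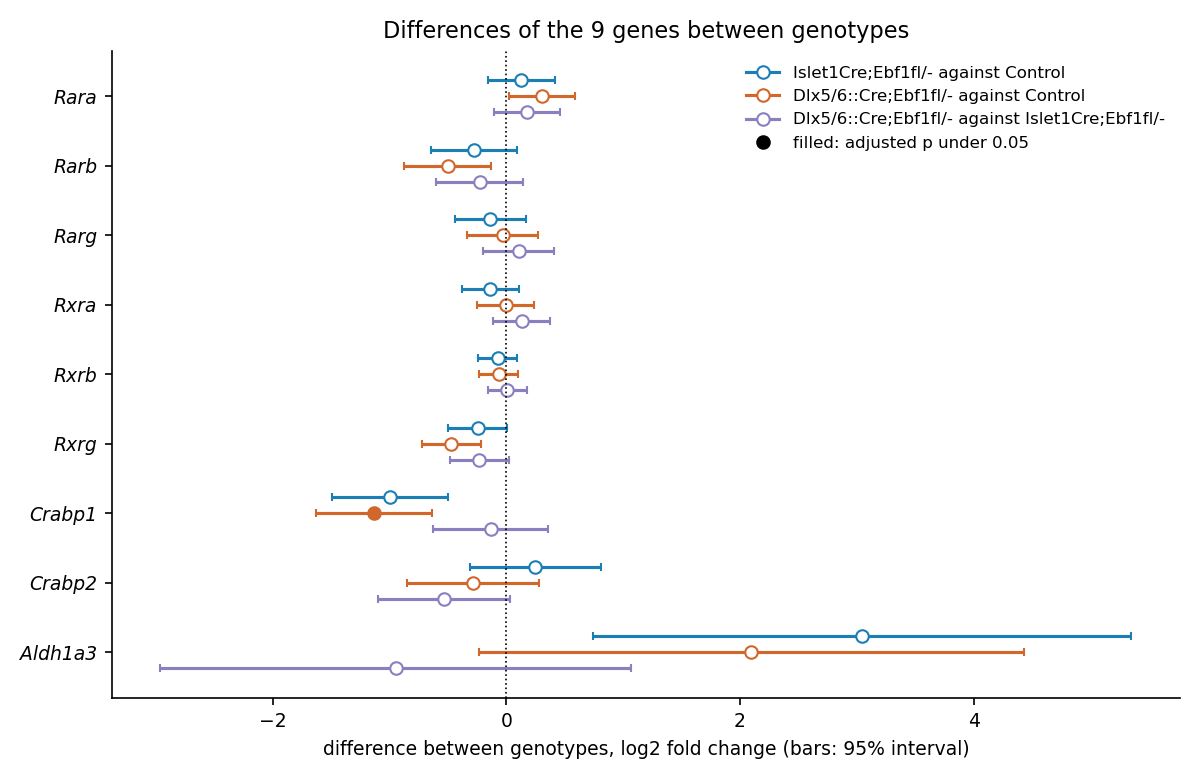
Difference of each of the 9 genes in each of 3 comparisons between genotypes, as log2 fold change with its 95% interval, where filled points mark an adjusted p below 0.05. Crabp1 in Dlx5/6::Cre;Ebf1fl/- against Control is the 1 filled point, and the intervals of Aldh1a3 are the widest.

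Between the mutants, none of the 9 genes passed the test by edgeR, where 0 of 16368 genes (0%) passed, and 0 of the 9 had an unadjusted p below 0.05 against 5.16% of all genes. DESeq2 also called 0 of the 9. The 95% interval of the difference ran, for Dlx5/6::Cre;Ebf1fl/- over Islet1Cre;Ebf1fl/-, from 0.648-fold to 1.28-fold for Crabp1, 0.716-fold to 1.02-fold for Rxrg and 0.660-fold to 1.1-fold for Rarb. For Crabp2 it ran from 0.466-fold to 1.02-fold, and for Aldh1a3 from 0.129-fold to 2.09-fold. Embryos of the mutants did not overlap for 1 of the 9 genes, Rxrg, against 10.4% of all genes. All Islet1Cre;Ebf1fl/- embryos carry IE codes and all Dlx5/6::Cre;Ebf1fl/- embryos D codes, so genotype and code cannot be told apart among the mutant embryos.

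Against Control, members whose embryos did not overlap numbered 3 of 9 in Islet1Cre;Ebf1fl/- (15.2% of all genes) and 2 of 9 in Dlx5/6::Cre;Ebf1fl/- (21% of all genes).

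The other genes of the pathway were taken from a list of 47 genes for synthesis and storage, degradation, transport, coregulators, other partners of RXR and targets of retinoic acid, of which 36 were tested. Of the 36, 1 rose and 0 fell in Islet1Cre;Ebf1fl/-, where 0.971% of all genes were called, and 10 had an unadjusted p below 0.05, against 7.93% of all genes. For Dlx5/6::Cre;Ebf1fl/- 2 rose and 1 fell, where 2.39% of all genes were called, and 11 had an unadjusted p below 0.05, against 15.5% of all genes. Between the mutants 0 passed by edgeR and 0 by DESeq2, with 2 of 36 at an unadjusted p below 0.05 by edgeR, against 5.16% of all genes. By DESeq2 the calls numbered 3 and 7 in the respective mutants, where 395 and 873 of all genes were called. With the embryo code as a covariate in edgeR they numbered 0 and 0, where 61 and 32 of all genes were called. Median log2 fold changes were 0.02 and 0.14 against Control in the respective mutants.

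**Figure D4:**
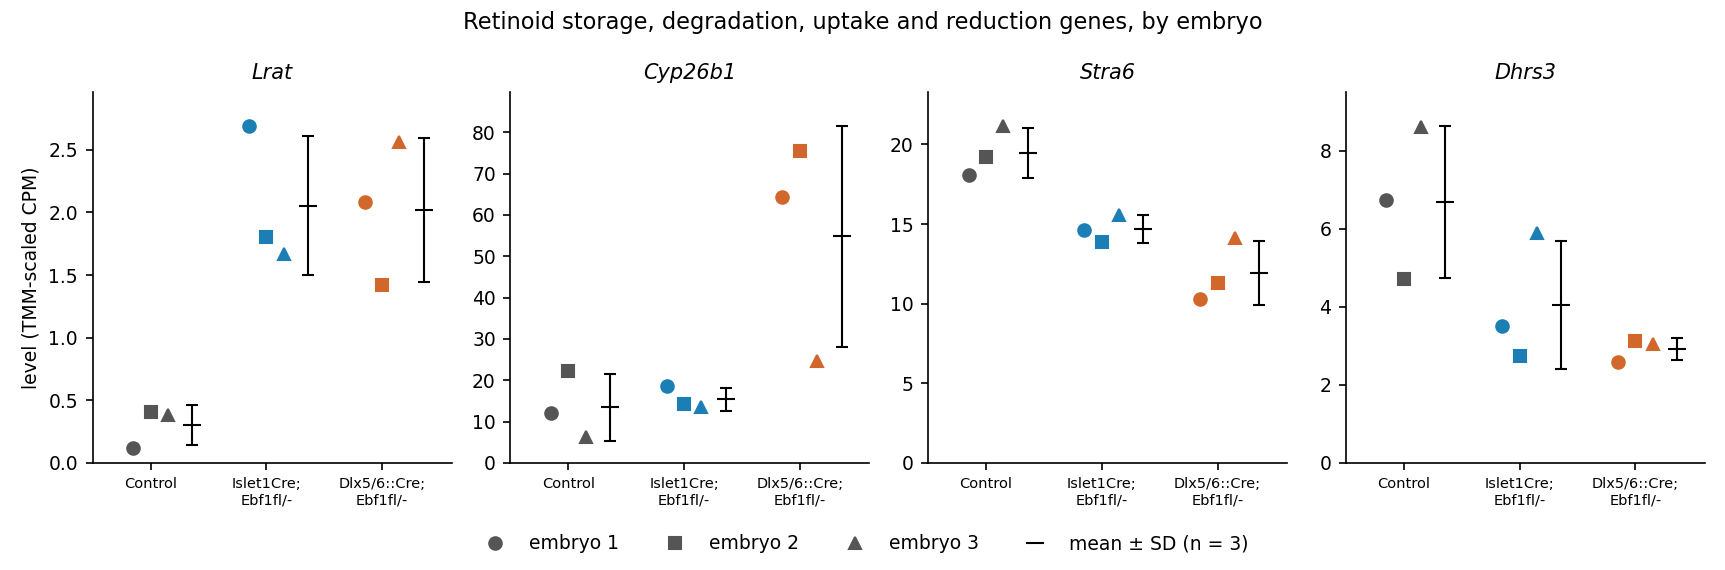
Levels of 4 genes that handle retinoids, in TMM-scaled CPM (linear axes), with 1 point per embryo and the mean ± SD of 3 embryos. Lrat was higher in all 6 mutant embryos, Cyp26b1 in the 3 Dlx5/6::Cre;Ebf1fl/- embryos, and Stra6 was lower in all 6 mutant embryos.

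Lrat, which encodes the enzyme that esterifies retinol for storage, rose in both mutants. It was at 0.120, 0.406 and 0.383 CPM in controls, 2.69, 1.81 and 1.67 in Islet1Cre;Ebf1fl/- and 2.08, 1.42 and 2.56 in Dlx5/6::Cre;Ebf1fl/-, from 4 to 15 counts per control library. The lowest mutant embryo stood above the highest control. Control 1, with 4 counts, was below the minimum count of 10 used to select genes for testing. Lrat therefore entered the test through mutant libraries, where it was high, and its tests are not independent of that. The log2 fold change was 2.74 in Islet1Cre;Ebf1fl/- (adjusted p = 0.0175) and 2.72 in Dlx5/6::Cre;Ebf1fl/- (adjusted p = 0.00804) by edgeR. Without both libraries that held Xist and Y-linked counts the adjusted p was 0.0789 and 0.0502, and with the embryo code as a covariate it was 0.0521 and 0.276. Its adjusted p in Islet1Cre;Ebf1fl/- was also above the threshold without control 1 (0.0575), control 3 (0.0522), or Islet1Cre;Ebf1fl/- embryo 1 (0.0904) or 2 (0.0774).

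Cyp26b1, the retinoic acid hydroxylase that was expressed here, rose in Dlx5/6::Cre;Ebf1fl/-. It was at 11.97, 22.1 and 6.19 CPM in controls, 18.5, 14.2 and 13.5 in Islet1Cre;Ebf1fl/- and 64.4, 75.5 and 24.7 in Dlx5/6::Cre;Ebf1fl/-. The 3 Dlx5/6::Cre;Ebf1fl/- embryos were above all others, by a wide margin in 2 of them. The log2 fold change over Control was 2.02 (adjusted p = 0.0444), and over Islet1Cre;Ebf1fl/- it was 1.83 (adjusted p = 0.868) by edgeR. Without both libraries that held Xist and Y-linked counts the log2 fold change over Control was 1.68 (adjusted p = 0.185), and with the embryo code as a covariate it was 3.15 (adjusted p = 0.114). Leaving out 1 library gave an adjusted p between 0.02 and 0.194, above the threshold without control 1 or 3, Dlx5/6::Cre;Ebf1fl/- embryo 2 or any 1 Islet1Cre;Ebf1fl/- embryo. The other members of this enzyme family, Cyp26a1 and Cyp26c1, had at most 4 counts in any library.

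Stra6, the membrane receptor that takes up retinol, fell in Dlx5/6::Cre;Ebf1fl/-. It was at 18.1, 19.2 and 21.2 CPM in controls, 14.6, 13.9 and 15.6 in Islet1Cre;Ebf1fl/- and 10.3, 11.3 and 14.2 in Dlx5/6::Cre;Ebf1fl/-. All mutant embryos were below the controls. The log2 fold change was −0.71 in Dlx5/6::Cre;Ebf1fl/- (adjusted p = 0.0246) and −0.41 in Islet1Cre;Ebf1fl/- (adjusted p = 0.321) by edgeR. Without any 1 of the 3 controls, or without Dlx5/6::Cre;Ebf1fl/- embryo 2, the adjusted p in Dlx5/6::Cre;Ebf1fl/- lay between 0.0609 and 0.108, and without both libraries that held Xist and Y-linked counts it was 0.179. With the embryo code as a covariate the log2 fold change was −0.83 (adjusted p = 0.158). Dhrs3, which reduces retinaldehyde back to retinol and is named here after its values were seen, was at 6.74, 4.71 and 8.61 CPM in controls, 3.50, 2.75 and 5.89 in Islet1Cre;Ebf1fl/- and 2.58, 3.11 and 3.05 in Dlx5/6::Cre;Ebf1fl/-. It did not pass the test by edgeR (log2 fold change −0.75, adjusted p = 0.51, and −1.19, adjusted p = 0.0736), and DESeq2 called it in Dlx5/6::Cre;Ebf1fl/- (adjusted p = 0.00278). Leaving out 1 library gave an adjusted p by edgeR between 0.0457 and 0.232 for Dhrs3 in Dlx5/6::Cre;Ebf1fl/-.

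Among abundant genes of each role that did not pass, the retinol dehydrogenases Rdh11 and Rdh10 were at log2 fold changes of −0.09 and 0.03 in Islet1Cre;Ebf1fl/- and 0.08 and −0.27 in Dlx5/6::Cre;Ebf1fl/-. The lipid carrier Fabp5 was at −0.23 in Islet1Cre;Ebf1fl/- and −0.08 in Dlx5/6::Cre;Ebf1fl/-. By edgeR none of the 8 coregulators passed, among them the coactivator Ncoa1 and the corepressor Ncor1, nor did any of the 9 tested partners of RXR, among them the thyroid hormone receptor Thra and the liver X receptor Nr1h2. At an unadjusted p below 0.05 there was 1 coregulator in each mutant, and there were 2 partners of RXR in Islet1Cre;Ebf1fl/- and 3 in Dlx5/6::Cre;Ebf1fl/-. Over all genes, 7.93% and 15.5% had such a p in the respective mutants. None of the 8 tested targets passed by edgeR, with 3 at an unadjusted p below 0.05 in each mutant, with Meis2 at 0.43 (adjusted p = 0.15) in Islet1Cre;Ebf1fl/- and 0.41 (adjusted p = 0.105) in Dlx5/6::Cre;Ebf1fl/-, and Ppp1r1b, also an SPN marker, at 0.17 and −0.17. DESeq2 called none of the coregulators, but called the targets Meis2 (adjusted p = 0.0185 and 0.019) and Meis1 (adjusted p = 0.016 and 0.0338) as higher in the respective mutants, and the RXR partner Nr4a1 as lower in Dlx5/6::Cre;Ebf1fl/- (adjusted p = 0.0412). Meis1 and Nr4a1 are named here after their values were seen. The retinaldehyde dehydrogenases Aldh1a1 and Aldh1a2 had at most 3 and 5 counts in any library.

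The summed level of cortical excitatory markers was above the range of the other genotypes in Dlx5/6::Cre;Ebf1fl/-, though no gene of that list passed the test. The list of 6 cortical excitatory genes summed to 78.6 to 183 CPM there, 33.0 to 77.9 in controls and 31.0 to 59.1 in Islet1Cre;Ebf1fl/-, and 0 of the 6 passed the test by edgeR, with 3 at an unadjusted p below 0.05 against Control. Over all genes, 2.39% were called in Dlx5/6::Cre;Ebf1fl/- against Control and 15.5% had an unadjusted p below 0.05. The 8 progenitor genes summed to 629 to 1190.0 CPM in Dlx5/6::Cre;Ebf1fl/-, with the top value in embryo 1 and overlap with the controls (632 to 719), and 0 of 8 passed, with 2 at an unadjusted p below 0.05. The 6 dSPN genes summed to 363 to 459 CPM there, 468 to 659 in controls and 519 to 587 in Islet1Cre;Ebf1fl/-, with 1 of 6 called, Chrm4, which was lower. All 6 had an unadjusted p below 0.05, of which 5 had a lower level and 1, the dopamine receptor gene Drd1, a higher one (log2 fold change 0.53, adjusted p = 0.293 by edgeR). Of 5 SPN genes 1 was called, Foxp1, also lower. These 3 genes are named after their values were seen. Of 7 interneuron genes 0 were called, with 3 at an unadjusted p below 0.05, and the list summed to 224 to 362 CPM there and 360.0 to 406 in controls, which overlapped. The 8 genes of the meninges, a known source of retinoic acid, summed to 19.5 to 23.9 CPM in all libraries, and the 4 choroid plexus genes to 1.29 to 2.69 CPM, with Ttr at or below 0.494 CPM. No gene of these lists, or of lists for indirect pathway SPN, endothelium, microglia and blood, was called in Islet1Cre;Ebf1fl/- by edgeR, and those 4 lists held no call in Dlx5/6::Cre;Ebf1fl/- either. The part of these shifts in the differences of the retinoid genes was not tested.

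**Figure D5:**
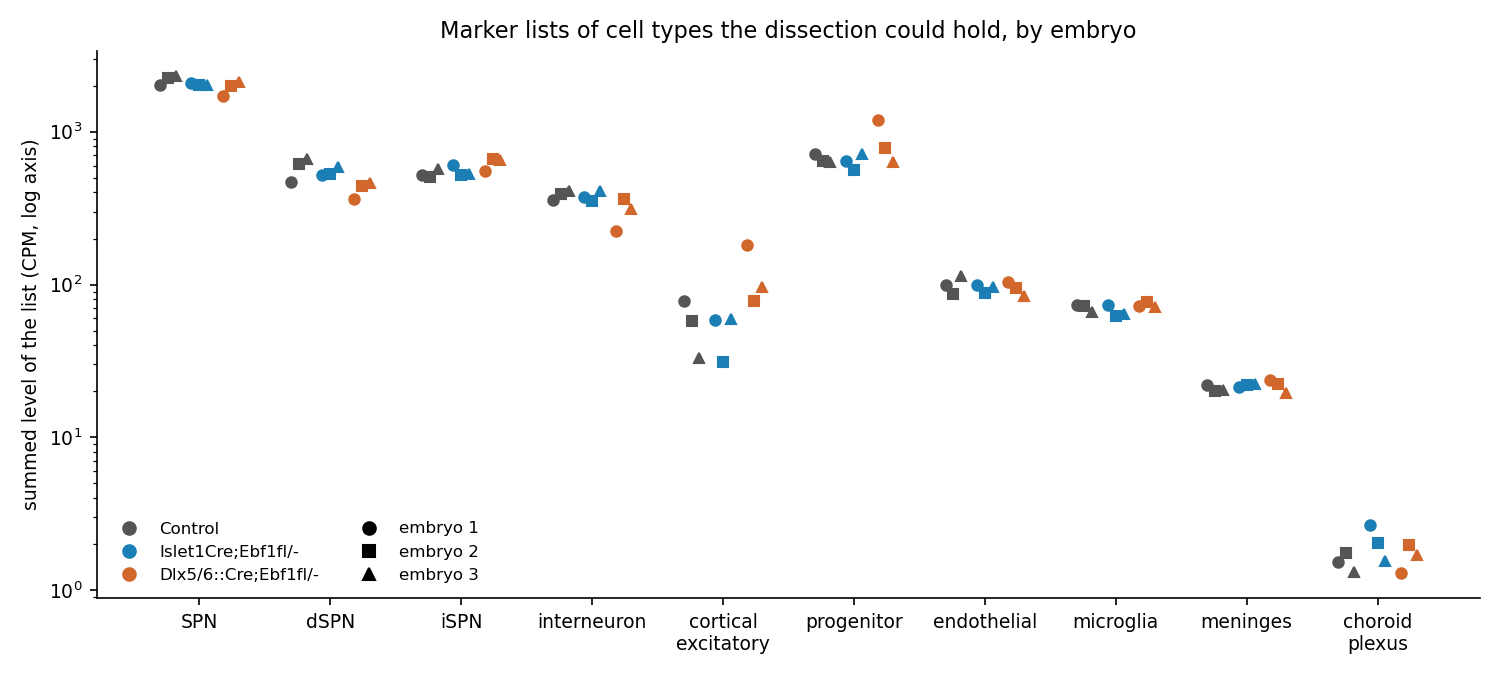
Summed level of each of 10 marker lists in CPM (log axis), with 1 point per embryo coloured by genotype. Dlx5/6::Cre;Ebf1fl/- embryo 1 has the highest progenitor sum (1190.0 CPM) and cortical excitatory sum (183 CPM), and the meninges and choroid plexus lists are low throughout.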

How the data were processed

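RNA-seq of striatal tissue was analysed for 9 embryos, from 400 ng of RNA per library and reads of 75 bp. The files deposited by the authors hold raw counts for each Ensembl identifier, with no scaling. According to the study's methods and processing notes, the authors trimmed and filtered reads in Eoulsan, mapped them with STAR 2.4.0k to mm10 with Ensembl 81 annotation, discarded multiply mapped reads, and counted with HTSeq 0.5.3; genes that resemble a paralog lose reads by this. Whether strand was used is not given in the sources used here.

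From the counts, edgeR 4.0.16 (R 4.3.3) was fitted to all 9 libraries with 3 genotype groups, TMM scaling, filterByExpr (minimum count 10) and the quasi-likelihood test, with Benjamini-Hochberg adjustment over 16368 genes and a threshold of 0.05. The step was tested on simulated counts. These were drawn without effects of embryo code, sex or libraries that stood apart, which the simulation therefore does not cover. Intervals are 95% and come from the same fit. Symbols and positions are those of GENCODE M21 (GRCm38), in which 44133 of 44886 identifiers were found. Levels per kilobase divide CPM by the length of all annotated exons, and log2 values for likeness use CPM plus 0.1. Promoter sequences are from RefSeq (GRCm38.p6).

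Totals ran from 16548083 to 41507049 counts per library, so that 3 counts equal 0.181 CPM in the smallest and 0.0723 in the largest, a limit that covers counting error alone. Counts of any pair of libraries within a genotype differed by more than counting error, so none was a copy of another and each was used as 1 replicate. This check cannot show that a library holds RNA of 1 embryo alone, which was not tested. In control 3, Xist was at 400.4 CPM beside 9.79 CPM of summed Y-linked transcripts. For Islet1Cre;Ebf1fl/- embryo 3 these values were 241.7 and 81.45 CPM. The labels do not say that same-numbered embryos were paired. Alternatives were DESeq2 1.42.0, its size factors in edgeR, other filters, the 6 libraries of a comparison, the embryo code or replicate number as a term, robust dispersion, leaving out each embryo, and, added after the data were seen, leaving out libraries that stood apart.

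The members and gene lists were chosen with earlier results of these data known. Genes named are all 9 members, pathway genes called against Control with up to 2 abundant uncalled genes per role, and the 3 genes most like each called member. A gene that this rule would name is not reported here.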

Additional observations from a re-analysis of the deposited data

How the results depend on the processing

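With 3 embryos per genotype the number of members called was 0 (Islet1Cre;Ebf1fl/-), 1 (Dlx5/6::Cre;Ebf1fl/-) and 0 (between mutants), and the last was 0 under every alternative. In Islet1Cre;Ebf1fl/- it was 1 (Crabp1) by DESeq2, 2 (Crabp1, Aldh1a3) with no filter on low counts and in the fit of only the 6 libraries compared, and 1 without both libraries that held Xist and Y-linked counts and the progenitor-rich one; leaving out 1 library gave 0 to 2, with 2 without Dlx5/6::Cre;Ebf1fl/- embryo 1. In Dlx5/6::Cre;Ebf1fl/- it was 2 (Rxrg, Crabp1) by DESeq2, 3 (with Rarb) with no filter, 0 with the 6 libraries compared, 0 with the embryo code as a covariate and 0 without both libraries with Xist and Y-linked counts. Leaving out 1 library gave 0 to 1, with 0 without control 1, control 2, Dlx5/6::Cre;Ebf1fl/- embryo 3 or Islet1Cre;Ebf1fl/- embryo 1.

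A replicate block gave 0, 2 (Rxrg, Crabp1) and 0. Over all genotypes, same-numbered embryos deviated together no more than others (mean r −0.023 over 9 pairs, 0.012 over 18 other pairs), and 4 of 9 libraries correlated best with their own number. For Control with Dlx5/6::Cre;Ebf1fl/- the same-number values were higher (0.178, 0.077 and 0.168) than the others (−0.177 to 0.04). For the other pairs of genotypes the same-number values lay between −0.228 and −0.038. The labels do not state pairs, and the numbers were not taken as pairs.

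Over all genes, 159, 392 and 0 were called. DESeq2 gave 395, 873 and 17, no filter 311, 708 and 13, the 6 libraries compared 259, 181 and 2, and the embryo code as a covariate 61, 32 and 1. Without both libraries with Xist and Y-linked counts there were 52, 138 and 3, and without the progenitor-rich library as well 252, 355 and 7. Of the 36 pathway genes 1, 3 and 0 were called, against 3, 7 and 0 by DESeq2, 2, 6 and 1 with no filter, 1, 1 and 0 with the 6 libraries compared and 0, 0 and 0 with the embryo code or without both libraries with Xist and Y-linked counts. Over all genes, leaving out 1 library gave 15 to 397, 143 to 613 and 0 to 4.

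Of 513 alternative values for the log2 fold changes of the 9 members in 3 comparisons, 469 kept direction and side of the threshold, 12 newly passed it, 7 no longer did and 25 changed sign, none of them a called value. With the embryo code as a covariate the sign turned for Dlx5/6::Cre;Ebf1fl/- over Islet1Cre;Ebf1fl/- in Rara (−0.15), Rarg (−0.0901), Rxrb (−0.0175) and Crabp1 (0.33), for Rxra in Dlx5/6::Cre;Ebf1fl/- over Control (0.0153) and for Cyp26b1 in Islet1Cre;Ebf1fl/- (−0.15). Without both libraries with Xist and Y-linked counts it turned for Rarg in Dlx5/6::Cre;Ebf1fl/- (0.0334), for Rxrb (−0.0252) and Crabp1 (0.0111) between mutants, and for Cyp26b1 in Islet1Cre;Ebf1fl/- (−0.0605). Without the progenitor-rich library as well, these 4 were 0.0043, −0.0745, 0.21 and −0.0682, and Aldh1a3 in Dlx5/6::Cre;Ebf1fl/- was −0.21.

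Leaving out 1 library, ranges that crossed 0 were, in Dlx5/6::Cre;Ebf1fl/- over Control, −0.14 to 0.0341 for Rarg, −0.0868 to 0.0721 for Rxra and −0.10 to 3.19 for Aldh1a3. In Islet1Cre;Ebf1fl/- over Control they were −0.0304 to 0.45 for Crabp2 and −0.14 to 0.76 for Cyp26b1. Between mutants they were −0.0457 to 0.0657 for Rxrb, −0.30 to 0.0605 for Crabp1 and −0.25 to 0.21 for Lrat. The causes were not tested.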
